A study of Homo sapiens with 4 samples.

Results

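Fatty acid activation and oxidation was followed through 41 genes in BT474, an established line of human breast cancer cells that carries an ERBB2 (HER2) amplification. They cover uptake and activation of fatty acids, the carnitine shuttle, the mitochondrial and peroxisomal oxidation spirals, electron transfer from the acyl-CoA dehydrogenases, and regulators of the pathway. The genes were chosen by symbol, and each was read from its brightest probe set among those annotated to that symbol alone. Of the 41 genes, 38 had such a probe set, out of 19775 genes on the array, and 33 lay above the bound for dim genes, a log2 value of 6.11. CPT1B, ACAD11 and ACSL3 had none and are not analysed here. The cells had received vehicle or 0.5 mM AICAR for 24 h in DMEM, with 2 Affymetrix arrays per group and 4 in all. AICAR is a nucleoside that cells phosphorylate to ZMP, which mimics AMP and so activates AMPK, the kinase that senses energy shortage. The labels do not name the vehicle, and no genetic change separates the groups.

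Long-chain fatty acids are first joined to coenzyme A by acyl-CoA synthetases. They then cross into mitochondria as carnitine esters, made by CPT1 enzymes on the outer membrane, carried by SLC25A20 and turned back by CPT2. In the matrix, each turn of the spiral removes an acetyl-CoA through dehydrogenation, hydration, a further dehydrogenation and thiolysis, and the flavin electrons leave through ETF and ETFDH. Peroxisomes shorten very long and branched chains with a separate set of enzymes that begins with an oxidase, and export the products as carnitine or free acids. AMPK is known to promote fatty acid oxidation by phosphorylating acetyl-CoA carboxylases, which lowers malonyl-CoA, the inhibitor of CPT1. Phosphorylation and malonyl-CoA were not measured by these arrays.

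The 4 arrays had medians of 6.37 to 6.40 (log2). Replicate arrays correlated at r = 0.997 across probe sets in either group. All 9 markers of a luminal, HER2-positive line lay above the dim bound, at group means of 9.25 or more, and 0 of them passed the test between groups. Of 17 fibroblast, adipocyte, hepatocyte, blood and endothelial markers on the array, 10 lay below that bound, PTPRC, ADIPOQ, ALB and CDH5 among them. The 7 above it were DCN, PDGFRB, PLIN1, CIDEC, SERPINA1, PECAM1 and VWF, and 0 of them passed. In SERPINA1, PLIN1, PECAM1 and VWF both AICAR values lay below both vehicle values. SERPINA1 was the brightest, at means of 8.15 with vehicle and 7.96 with AICAR (log2 -0.19, limma adjusted p = 0.182). In the fit of all genes without the dim filter, the blood marker LYZ was higher with AICAR, at 5.31 and 5.26 with vehicle and 5.66 and 5.71 with AICAR (log2 0.40, limma adjusted p = 0.0472). COL1A2 differed by 0.31 (adjusted p = 0.123) and CDH5 by 0.23 (adjusted p = 0.162), with the groups not overlapping. The part of these markers, dim or not, in the results that follow was not tested. In cultures measured in bulk, fewer cells of a kind and less RNA per cell cannot be told apart. Nothing in the labels says that replicates came from separate cultures, so p-values cover only the spread among these arrays, which may be technical. An exact permutation test of 2 against 2 arrays cannot give a p below 0.333, so the tests are limma's, fitted across all genes.

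Of the 33 tested members, 5 fell with AICAR and 0 rose at a limma adjusted p under 0.05, while most of the spiral enzymes had small differences. The members that fell were the short/branched-chain acyl-CoA dehydrogenase ACADSB, the carnitine acetyltransferase CRAT, the medium-chain acyl-CoA dehydrogenase ACADM, the carnitine importer SLC22A5 and the electron acceptor ETFDH. Those 5 are 15.2% of the tested members. Over all 13842 genes tested, 9.82% were called, 4.63% as risen (641 genes) and 5.19% as fallen (718 genes); after quantile normalization of the deposited values the split was 854 and 624. At an unadjusted p under 0.05, 10 members were lower and 0 higher, against 13.3% of all genes lower and 12.8% higher. In 21 of the 33 members both AICAR values lay below both vehicle values, and in 7 they lay above. The same held for 28.0% and 28.5% of all genes. The median difference, AICAR minus vehicle, was -0.10 (log2) over the members and 0.01 over all genes, with 24 members negative and 9 positive. The 5 calls depend on the arrays used, as do the calls over all genes, which were fewer in each fit without 1 array. In those fits the differences of the 5 members stayed negative, from -0.81 to -0.67 for ACADSB and from -0.37 to -0.31 for ETFDH. Without vehicle replicate 1, 0 members passed, and without vehicle replicate 2 only ACADSB did. Without AICAR replicate 1, 4 passed, and without AICAR replicate 2, 3 passed, which were ACADSB, CRAT and ACADM.

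**Figure D1:**
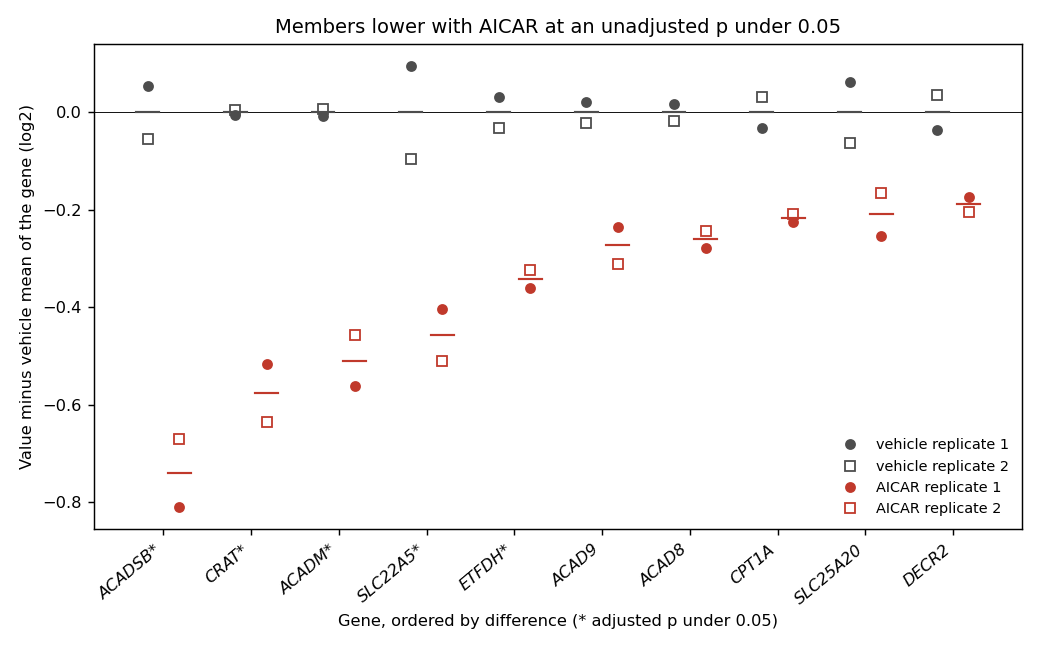
Value on each of the 4 arrays minus the vehicle mean of the gene (log2), for the 10 members lower with AICAR at an unadjusted p under 0.05. Circles are replicate 1, squares replicate 2, short lines group means, and asterisks mark the 5 members with an adjusted p under 0.05. In each of the 10, both AICAR values lie below both vehicle values, by group means of 0.74 for ACADSB down to 0.19 for DECR2.

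Promoters of 3 of the 5 members that fell are shown because these transcripts moved in the same direction, and the title of the series names ERRα, which binds extended copies of a nuclear receptor core motif. RefSeq promoter windows (GRCh38.p14, 250 bases before to 50 after the start) were matched for 33 of the 41 members, in 49 windows since some genes have several starts. Of the members that fell, ACADM, ACADSB and SLC22A5 were matched, and CRAT and ETFDH were not. The 150 bases before the start are given 5′ to 3′ on the strand of the gene, which is the plus strand in all 3. They lie at chr1:75724559-75724708 for ACADM, chr10:123008856-123009005 for ACADSB and chr5:132369560-132369709 for SLC22A5. Capitals mark GC boxes, GGGCGG on either strand, the motif bound by SP family factors.
ACADM: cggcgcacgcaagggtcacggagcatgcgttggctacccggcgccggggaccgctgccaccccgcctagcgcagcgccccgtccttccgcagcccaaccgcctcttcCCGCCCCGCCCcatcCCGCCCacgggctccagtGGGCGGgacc
ACADSB: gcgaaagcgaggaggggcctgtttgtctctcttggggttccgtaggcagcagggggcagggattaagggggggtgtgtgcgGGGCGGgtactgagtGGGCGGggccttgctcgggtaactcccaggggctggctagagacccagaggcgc
SLC22A5: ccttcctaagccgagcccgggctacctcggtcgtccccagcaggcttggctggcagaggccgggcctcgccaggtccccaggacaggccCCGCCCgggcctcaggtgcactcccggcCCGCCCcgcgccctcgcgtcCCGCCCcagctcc
These stretches hold 4, 2 and 3 GC boxes, with overlapping matches counted, and have a GC content of 77.3%, 67.3% and 78.0%. A GC box was present in 67.3% of the members' windows and 45.0% of all 35116 windows. The median GC content was 67.0% in the members' windows and 58.7% in all, and its part in the GC box shares was not tested. The nuclear receptor core AGGTCA, searched on both strands, was present in 2 of the members' 49 windows (4.08%), those of ACAD10 and ACSL5. It was in 13.8% of all windows, and the part of GC content in these shares was not tested either. The longer estrogen-related receptor element TCAAGGTCA, which contains that core, was in 0 of the 49 windows and 0.353% of all. A direct repeat of the core with 1 base between, AGGTCANAGGTCA, was in 0 and 0.0228%. Both elements are so rare over all windows that 0 of 49 cannot tell whether the members hold fewer. Variants of these elements were not searched. A match is a description of the letters only, and these windows leave out more distant sequence.

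Among genes of uptake and activation, ACSL1 was the only member above the dim bound. It encodes the long-chain acyl-CoA synthetase that starts both oxidation and lipid synthesis. Its values were 12.35 and 12.48 (log2) with vehicle and 12.54 and 12.73 with AICAR. The AICAR values were the higher ones and the groups did not overlap, but the difference of 0.22 (95% confidence interval -0.0034 to 0.44) did not pass (limma adjusted p = 0.197). The dimmer probe set of ACSL1 differed by 0.15. ACSL1 passed only with moderation by a trend and robust variances (adjusted p = 0.0420). ACSL5, which also activates long chains, lay just below the dim bound, at 6.03 and 5.81 with vehicle and 6.04 and 6.25 with AICAR. ACSL4, which prefers arachidonate, had vehicle and AICAR means of 4.42 and 4.40, and the fatty acid receptor CD36 of 5.62 and 5.65. In a fit of all genes without the dim filter, these 3 genes had adjusted p values of 0.343, 0.954 and 0.889, and ACSL4 and CD36 overlapped between groups.

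All 5 tested genes of carnitine supply and the carnitine shuttle had lower values on both AICAR arrays than on either vehicle array, and 2 of them fell. The first held for 28.0% of all genes, and 5.19% of all genes fell. CRAT, which moves acetyl groups between coenzyme A and carnitine in mitochondria and peroxisomes, was at 12.44 and 12.45 with vehicle and at 11.93 and 11.81 with AICAR. That is a 1.49-fold fall (log2 -0.58, SE 0.0734, limma adjusted p = 0.0111). The vehicle values were almost equal, and the AICAR values lay apart from each other by less than their distance from vehicle. The other probe set of CRAT, at a lower signal, differed by -0.36. SLC22A5 encodes OCTN2, the sodium-coupled transporter that brings carnitine into the cell. It went from 9.39 and 9.20 with vehicle to 8.89 and 8.78 with AICAR, 1.37-fold lower (log2 -0.46, SE 0.0896, adjusted p = 0.0297). The vehicle replicates of SLC22A5 were farther apart than those of CRAT, but the groups stayed separate. Its other probe set, below the dim bound, differed by -0.04, and with the mean of both SLC22A5 did not pass (-0.25, adjusted p = 0.109).

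The carnitine acyltransferases and the carrier had smaller differences. CPT1A, the rate-limiting entry enzyme, was at 11.54 and 11.60 with vehicle and 11.34 and 11.36 with AICAR, a difference of -0.22 (SE 0.0679, adjusted p = 0.103). The values did not overlap, and the call was missed over all genes. All 4 of its probe sets were negative, from -0.61 to -0.22, and the brightest, used here, gave the difference nearest to 0. With the mean of the 4 probe sets CPT1A fell (log2 -0.40, adjusted p = 0.0219), as it did with a trend and robust variances (adjusted p = 0.0134). The inner-membrane carrier SLC25A20 was at 8.11 and 7.99 with vehicle and 7.80 and 7.88 with AICAR (difference -0.21, SE 0.0785, adjusted p = 0.155). CPT2, which rebuilds acyl-CoA in the matrix, differed by -0.13 (95% confidence interval -0.29 to 0.03, adjusted p = 0.274), and its other probe set by -0.07.

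The acyl-CoA dehydrogenases catalyse the opening step of the spiral, and each prefers a chain length or branch. They held the largest difference of any member. ACADSB, which oxidises short and branched chains including the product of isoleucine breakdown, was at 7.91 and 7.81 with vehicle and at 7.05 and 7.19 with AICAR. It was 1.67-fold lower (log2 -0.74, SE 0.0820, limma adjusted p = 0.00793). The remaining probe set differed by -0.29. The gap between the groups was larger than the spread within either. ACADM, the medium-chain enzyme whose loss causes the most common inherited defect of the pathway, has 1 probe set. Its values were 10.24 and 10.26 with vehicle and 9.69 and 9.79 with AICAR, 1.42-fold lower (log2 -0.51, SE 0.0718, adjusted p = 0.0138). The difference of ACADM was -0.56 to -0.46 in the fits that left out 1 array, although without vehicle replicate 1 or 2 its adjusted p was 0.0907 and 0.0876.

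Other dehydrogenases lay on either side of 0. ACAD8, the isobutyryl-CoA dehydrogenase of valine breakdown, was at 9.25 and 9.22 with vehicle and 8.96 and 8.99 with AICAR (difference -0.26, SE 0.0671, adjusted p = 0.0617). ACAD9, which is needed to assemble respiratory complex I and can oxidise long chains, was at 10.24 and 10.20 with vehicle and 9.99 and 9.91 with AICAR (difference -0.27, SE 0.0700, adjusted p = 0.0610). Neither gene overlapped between groups, and both missed the threshold by a small margin. Both passed with a dim bound at the 50th percentile (adjusted p = 0.0294 and 0.0297) and with a trend and robust variances, and ACAD8, which has 1 probe set, also in the fit that averaged the probe sets of each gene (0.0487). The other probe set of ACAD9, near the dim bound, differed by 0.07, and in that averaged fit ACAD9 differed by -0.10 (adjusted p = 0.346). The very-long-chain enzyme ACADVL differed by -0.10 (adjusted p = 0.393), the short-chain enzyme ACADS by 0.11 (0.347) and ACAD10, a less characterised member of the family, by 0.16 (0.261). The 4 probe sets of ACAD10 ranged from -0.18 to 0.16, and only the brightest was positive. The long-chain enzyme ACADL was dim, with group means of 4.32 and 4.51. The 7 tested dehydrogenases had a median difference of -0.26.

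Of the 5 tested genes of the later steps of the mitochondrial spiral, 0 passed the threshold, and 0 had an unadjusted p under 0.05. Over all genes 9.82% were called, and with 5 genes a count of 0 is coarse. HADHA and HADHB form the trifunctional protein, which carries out these steps on long chains. HADHA was at 10.97 and 10.99 with vehicle and 10.91 on both AICAR arrays (difference -0.06, 95% confidence interval -0.22 to 0.09, adjusted p = 0.587), and its 3 probe sets ranged from -0.23 to -0.06. HADHB differed by -0.10 (-0.26 to 0.06), the short-chain hydratase ECHS1 by -0.07 (-0.25 to 0.11) and the short-chain hydroxyacyl-CoA dehydrogenase HADH by -0.13 (-0.31 to 0.05). The thiolase ACAA2 differed by 0.16 (-0.02 to 0.33), while its 2 dimmer probe sets were negative, at -0.09 and -0.13. The lowest bound among these 5 intervals, -0.31 for HADH, lay above the differences of ACADSB and ACADM.

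Electron transfer from the dehydrogenases runs through the soluble flavoprotein of ETFA and ETFB to the membrane enzyme ETFDH, which reduces ubiquinone. ETFDH was at 8.29 and 8.22 with vehicle and at 7.89 and 7.93 with AICAR, 1.27-fold lower (log2 -0.34, SE 0.0687, limma adjusted p = 0.0315). The groups did not overlap, and the other probe set differed by -0.31. ETFDH passed in 6 of 12 alternative settings, the fewest of the 5 members that fell. It did not pass when any 1 array was left out (adjusted p = 0.0695 to 0.198), without the dim filter (0.0664) or with the mean of both probe sets (0.0712). ETFB was at 10.94 and 10.95 with vehicle and 10.87 and 10.64 with AICAR (difference -0.19, adjusted p = 0.249), where AICAR replicate 2 was the lower array. ETFA differed by -0.04 (95% confidence interval -0.20 to 0.12, adjusted p = 0.746).

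Unsaturated fatty acids need isomerases and reductases to be oxidised fully in the spiral. Of these 4 genes 0 passed (limma), against 9.82% of all genes, and 1 was lower at an unadjusted p under 0.05, against 13.3%. The peroxisomal dienoyl-CoA reductase DECR2 was at 10.05 and 10.12 with vehicle and 9.91 and 9.88 with AICAR (difference -0.19, SE 0.0690, adjusted p = 0.147). Its groups did not overlap. Its mitochondrial counterpart DECR1 differed by 0.07 (-0.10 to 0.24, adjusted p = 0.594). The mitochondrial isomerase ECI1 differed by -0.09 (adjusted p = 0.455), and ECI2, found in both organelles, by 0.12 (adjusted p = 0.302).

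Genes of the peroxisomal spiral and of transport into and out of peroxisomes had 0 calls by limma among 5 tested. At an unadjusted p under 0.05 there were also 0. The share called over all genes was 9.82%, so 0 among 5 is a coarse count. ACOX3, an oxidase that opens the spiral for branched chains, was at 7.93 and 7.51 with vehicle and 7.52 and 7.53 with AICAR. On this probe set only vehicle replicate 1 stood apart, and the groups overlapped (difference -0.20, 95% confidence interval -0.52 to 0.12, adjusted p = 0.398). Without that array the difference was 0.01. The dimmer probe set of ACOX3 was at 7.66 and 7.44 with vehicle and 6.999 and 7.36 with AICAR, without overlap, a difference of -0.37 (adjusted p = 0.239 in the fit of all probe sets), and the mean of both differed by -0.28 (adjusted p = 0.190). HSD17B4, the multifunctional enzyme of the middle steps, was at 10.66 and 10.68 with vehicle and 10.71 and 10.63 with AICAR (difference 0.0035, -0.16 to 0.17, adjusted p = 0.985). Its AICAR values lay on either side of the vehicle values. The thiolase ACAA1 differed by -0.14 (adjusted p = 0.249), with both probe sets negative. ABCD3, the importer of branched-chain acyl-CoA, differed by -0.07 (adjusted p = 0.658), and its values overlapped. CROT, which makes carnitine esters of shortened chains for export, differed by 0.08 (adjusted p = 0.537), whereas its dimmer probe sets differed by -0.33 and -0.54. The bifunctional enzyme EHHADH was dim, at 5.73 on both vehicle arrays and 5.81 and 5.18 with AICAR.

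Set side by side, 3 of 20 tested mitochondrial members fell and 0 of 6 peroxisomal members did (limma). At an unadjusted p under 0.05, 7 and 1 were lower. Over all genes tested, 5.19% fell and 13.3% were lower at that unadjusted p. The medians of the compartments were close to each other, at -0.12 for mitochondrial and -0.10 for peroxisomal members (log2). The difference between the groups was not tested, since the members were chosen with results known and 6 peroxisomal genes give a coarse count. Of the mitochondrial members 16 were negative and 4 positive, and in all 20 the AICAR values lay wholly above or wholly below the vehicle values. Of the peroxisomal members 4 were negative and 2 positive, and in 3 the groups overlapped. Of all genes tested 47.6% were negative, and the AICAR values lay wholly below in 28.0% and wholly above in 28.5%. Relative to the vehicle mean of each gene, the mitochondrial median was -0.10 on AICAR replicate 1 and -0.14 on AICAR replicate 2. The peroxisomal median was -0.15 and -0.08 on the same arrays, so which compartment was lower differed between the replicates. On vehicle replicates 1 and 2 the medians were -0.0037 and 0.0037 for the mitochondrial and -0.013 and 0.013 for the peroxisomal members. The choice of probe set moved the peroxisomal median most. When all probe sets of a gene were averaged it was -0.19, against -0.10 for the mitochondrial members, and without vehicle replicate 1 it was -0.05. Counting ECI2 as peroxisomal gave -0.07. The other tested members found in both organelles, CRAT and MLYCD, are in neither compartment's counts. CRAT fell (log2 -0.58), so the 0 peroxisomal members that fell rest on that assignment.

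**Figure D2:**
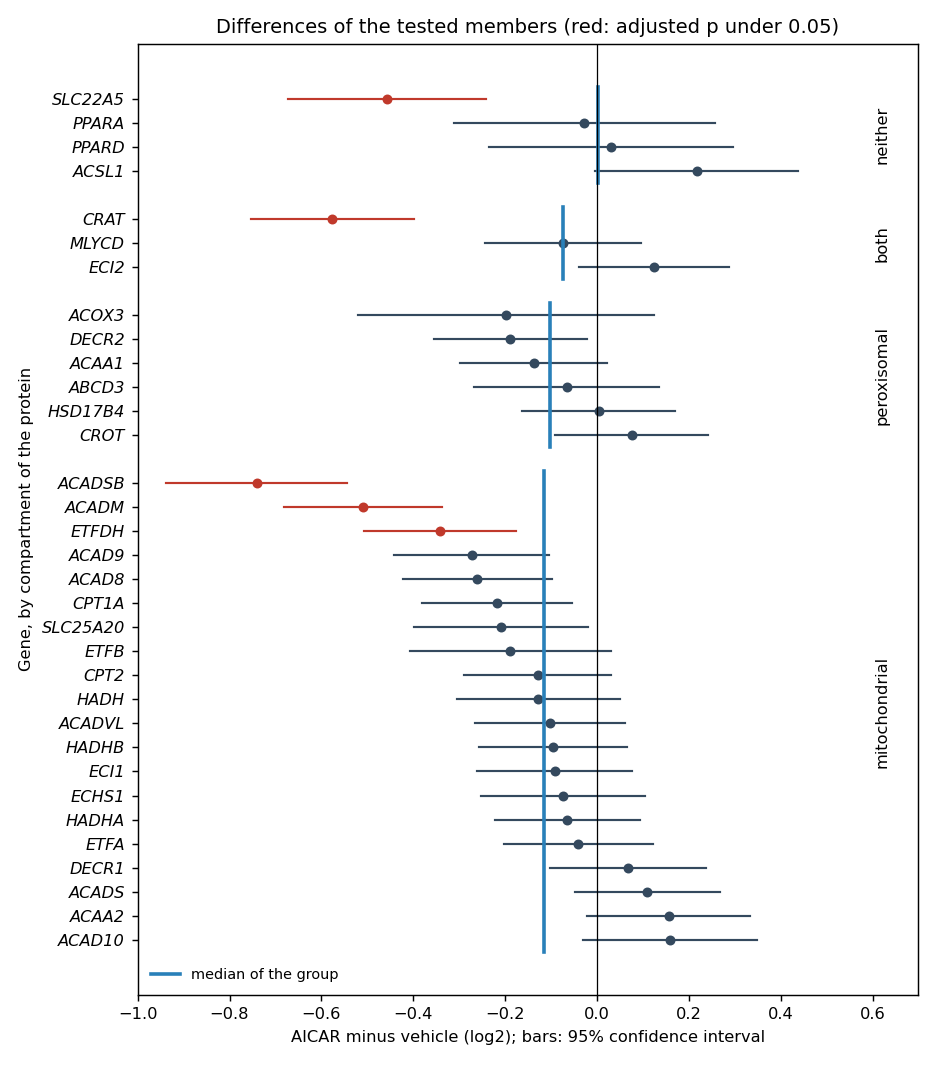
Difference AICAR minus vehicle (log2) with its 95% confidence interval for each of the 33 tested members, grouped by the compartment of the protein. Red marks the 5 members with an adjusted p under 0.05, and blue lines give group medians. The red genes are ACADSB, ACADM and ETFDH in mitochondria, CRAT in both organelles and SLC22A5 in neither, while the medians of the mitochondrial and peroxisomal groups, -0.12 and -0.10, nearly coincide.

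Of the 3 regulators 0 passed the test, against 9.82% of all genes, and with 3 genes a count of 0 is coarse. PPARA, the nuclear receptor that induces oxidation genes in liver, was close to the dim bound, at 6.51 and 6.84 with vehicle and 6.70 and 6.59 with AICAR (difference -0.03, -0.31 to 0.26, adjusted p = 0.909). PPARD, its relative with wide tissue distribution, was at 8.23 and 8.48 with vehicle and 8.29 and 8.48 with AICAR (difference 0.03, -0.24 to 0.30, adjusted p = 0.894). In both genes the groups overlapped and the spread between vehicle replicates exceeded the difference. The 4 probe sets of PPARD were all positive, and the 9 of PPARA ranged from -0.06 to 0.17. MLYCD, which degrades malonyl-CoA and so relieves CPT1, differed by -0.07 (-0.24 to 0.10, adjusted p = 0.557).

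How far a member's value rests on its probe set varied. Of 83 probe sets for 38 members, 24 members had more than 1, and in 11 of these the probe sets had opposite signs. The probe sets of ACADSB, CRAT, ETFDH, SLC22A5, CPT1A, HADHA, ACAA1, ACOX3, ABCD3 and CPT2 were negative throughout. Those of ACSL1, ACSL5 and PPARD were positive throughout.

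**Figure D3:**
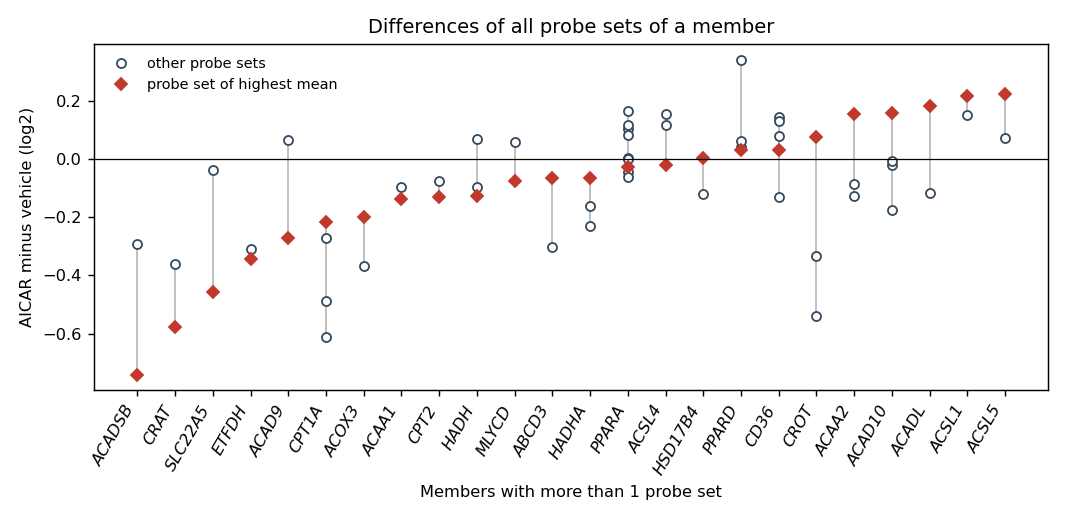
Difference AICAR minus vehicle (log2) of every probe set of the 24 members that have more than 1, with the probe set of highest mean, used for the tests, as a red diamond and the others as open circles. The 4 probe sets of CPT1A run from -0.61 to -0.22, all below 0, whereas those of CROT run from -0.54 to 0.08 with only the brightest above 0.

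Among 56 other genes of the pathway, read from lists that hold no member, 41 were tested, of which 3 rose and 1 fell, 9.76% against 9.82% of all genes. All 4 encode mitochondrial proteins, from a list of 10 tested. ACOT9, a thioesterase that splits acyl-CoA into free acid and coenzyme A, was at 10.58 and 10.59 with vehicle and 11.06 and 11.19 with AICAR, 1.46-fold higher (log2 0.54, SE 0.0751, limma adjusted p = 0.0136). ACOT13, a thioesterase of medium and long chains, was at 10.36 and 10.31 with vehicle and 10.83 and 10.71 with AICAR, 1.35-fold higher (log2 0.43, adjusted p = 0.0216). ETFRF1, which binds ETF and displaces its flavin, went from 9.67 and 9.75 to 10.07 and 10.21 (log2 0.43, adjusted p = 0.0265). AUH, a hydratase of leucine breakdown, went the other way, from 9.12 and 9.04 to 8.50 and 8.51 (log2 -0.58, adjusted p = 0.00978). The groups did not overlap in any of the 4. Without vehicle replicate 1 or without vehicle replicate 2, 0 of the 41 genes passed.

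The other 3 lists had 0 calls each by limma, with 3 genes higher and 1 lower among them at an unadjusted p under 0.05. Of 13 other peroxisomal genes 9 were positive, with a median of 0.11, and the largest difference was that of catalase, CAT (0.20, adjusted p = 0.111). In the list of 10 other mitochondrial genes, 6 were positive, with a median of 0.08. Of all 13842 genes tested 7257 were positive, with a median of 0.01. Of 9 genes of uptake, activation and binding, the very-long-chain acyl-CoA synthetase SLC27A2 had the largest difference (0.21, adjusted p = 0.134). Of 9 genes of malonyl-CoA and nuclear receptor control, PPARGC1A, the coactivator PGC-1α, had the largest (0.22, adjusted p = 0.0978). The acetyl-CoA carboxylases that make malonyl-CoA differed by -0.02 for ACACA (95% confidence interval -0.18 to 0.14) and 0.03 for ACACB (-0.16 to 0.21). ESRRA, which encodes ERRα, differed by 0.10 (-0.06 to 0.26, limma adjusted p = 0.397).

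**Figure D4:**
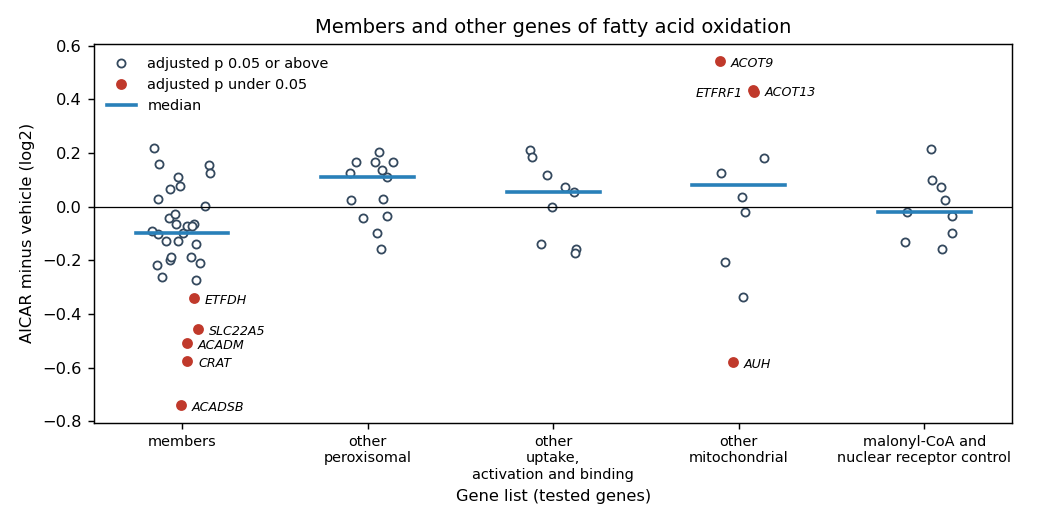
Difference AICAR minus vehicle (log2) of the 33 tested members and of 41 other tested genes of the pathway in 4 lists, with list medians as blue lines. Filled red points are genes with an adjusted p under 0.05. The 5 called members all lie below 0, whereas of the 4 called genes in the list of other mitochondrial proteins ACOT9, ACOT13 and ETFRF1 lie above 0 and AUH below.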

How the data were processed

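Total RNA was biotin-labelled and hybridised to Affymetrix arrays, per the labels' protocols. The deposited values are log2 expression per probe set, normalized by the authors with Affymetrix Expression Console, per the submitters' processing notes; no version, background correction or summarization is stated there, so differences of dim probe sets may be understated. Values were used as deposited. Symbols of 41043 of the 41097 probe sets annotated to 1 gene were updated through Entrez IDs with RefSeq (GRCh38.p14, names only). For each of 19775 genes the probe set of highest mean was kept, and genes below the 30th percentile of means were left out. The AICAR minus vehicle difference came from limma 3.58.1 (lmFit, then eBayes, under R 4.3.3), two-sided, with Benjamini-Hochberg adjustment over 13842 genes and 95% confidence intervals; rose and fell mean an adjusted p under 0.05. Dim members take their values from a fit without that filter. The number of arrays limits the precision (median SE 0.0772). On simulated data for this comparison, 200 of 13842 genes were changed. There the fit recovered 50.9% of genes changed by 0.5 and 96.7% of those changed by 1 (log2), and 5.49% of calls were false. Fewer genes were changed there than the 1359 called in the data, and noise was drawn independently per gene. How far these shares carry over to the arrays was not tested.

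The members and lists were chosen with earlier results of these data known. Every member is named. Those with an unadjusted p under 0.05, with CPT1A, HADHA, ACOX3 and HSD17B4, have their value on each array. Per-array values of other members, and the genes ACACA, ACACB and ESRRA, were added after values were seen. Of other pathway lists, up to 4 called genes or else the one with the largest difference are named. GC boxes were added to the motif search after seeing the data. The alternatives changed the dim filter (none, or the 50th percentile), the scaling (quantile, median centring), the moderation (trend, robust variances), the probe sets (mean of all, or none ending in _x_at), the threshold (0.1), the model (replicate block) and the arrays (each left out).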

Additional observations from a re-analysis of the deposited data

How the results depend on the processing

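Of the members, 3 fell without the dim filter and 8 with a trend and robust variances, where 1 also rose, against 5 and 0 as reported. Mitochondrial members that fell numbered 5 with the bound at the 50th percentile, 6 with a trend and robust variances and 5 at an adjusted p under 0.1, against 3. Other pathway genes that fell numbered 2, 3 and 2 under the same settings, against 1. Calls over all genes rose as well, with 990 of 9888 fallen with that bound and 1359 of 13842 with a trend and robust variances. At an adjusted p under 0.1 it was 1173 of 13842, against 718 as reported. Leaving out 1 array at a time gave 0 to 4 members and 0 to 2 mitochondrial members that fell, and 0 to 2 other pathway genes that rose and 0 to 1 that fell. The medians then ran from -0.12 to -0.089 (log2) over the members, -0.14 to -0.10 over mitochondrial members, -0.15 to -0.047 over peroxisomal members and 0.010 to 0.090 over the other genes. Quantile normalization gave medians of -0.068 for the members and -0.078 for mitochondrial members, and the mean of all probe sets -0.19 for peroxisomal members. The cause of these shifts was not tested. Over all genes, 368 rose and 355 fell without the dim filter, 1107 and 1359 with a trend and robust variances, and 69 to 553 and 30 to 432 with an array left out. No called member changed sign in any of these settings. The labels share replicate numbers without saying that they pair arrays, and deviations of same-numbered arrays correlated at r = -0.0721. With the replicate block 5 members fell and 0 rose, and the block changed no call of a member. Fits without an array leave a group with 1 array, which is assumed to vary like the other group. The fit of all probe sets separately gave the probe set values in the report and no further counts.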
